A study of Mus musculus with 10 samples.

Results

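The insulin-like growth factor (IGF) family described here comprised 9 genes: the ligands Igf1 and Igf2, the signalling receptor Igf1r and the binding proteins Igfbp2, Igfbp3, Igfbp4, Igfbp5, Igfbp6 and Igfbp7. The genes were chosen by symbol from the 19938 genes that the arrays measured with a probe set of exactly 1 annotated symbol, and each of the 9 had 1 such probe set. Levels are the authors' deposited values on a log2 scale, so a difference of 1 is a doubling, and each gene is compared only with itself, since probe sets differ in brightness.

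Osteoblastic lineage cells, the bone-forming cells and precursors of the endosteal surface, had been sorted from 5 control and 5 BA mice on a C57BL/6 background, each a single mouse on its own Affymetrix array. BA mice were Scl-tTA::TRE-BCR/ABL, that is, they carried the leukaemia fusion BCR/ABL under a promoter driven by a tetracycline-repressed activator expressed from the Scl promoter of blood-forming cells, so the transgene is not aimed at the sorted bone cells themselves. Both groups came off doxycycline at 5 weeks of age and were sampled 5 to 6 weeks later, when BA mice had a myeloproliferative neoplasm; the genotype of the age-matched controls is given only as control. Stromal cells were freed from crushed, washed bone with collagenase and sorted after antibody staining for CD51, Sca-1, CD31, CD45 and lineage markers, and RNA of 500 to 2300 cells was amplified. The comparison of BA with control asks how this sorted bone fraction differs when the marrow is diseased.

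IGF1 and IGF2 are small secreted hormones that act through the IGF1 receptor, a tyrosine kinase upstream of the PI3 kinase and AKT pathway. Bone is among the richest stores of both, and IGF1 drives growth plate cartilage and bone formation. Most secreted IGF is held by IGF-binding proteins, which lengthen its half-life, keep it from the receptor or, once cleaved by proteases such as PAPP-A, release it near cells.

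Most genes of the family had less RNA on average in BA cells. Igfbp5 averaged 3.30-fold and Igfbp4 1.77-fold lower, while Igf2 differed by -0.07 and Igf1 varied more among control mice than between the groups. The mean in BA cells was lower for 8 of the 9 genes and higher for Igf1r, with a median difference of -0.31, where 62.1% of all genes had a lower mean and the median over all genes was -0.06. None of the 9 passed an adjusted p under 0.05 (limma, Benjamini-Hochberg over all genes), a threshold that 0.00502% of all genes passed, namely 1 gene. At an unadjusted p under 0.05, 3 of the 9 were lower (Igfbp2, Igfbp4 and Igfbp5) and 0 higher, where 5.27% of all genes were lower and 4.13% higher at that level. The groups overlapped for all 9 genes, and 1.67% of all genes had groups that did not overlap.

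**Figure D1:**
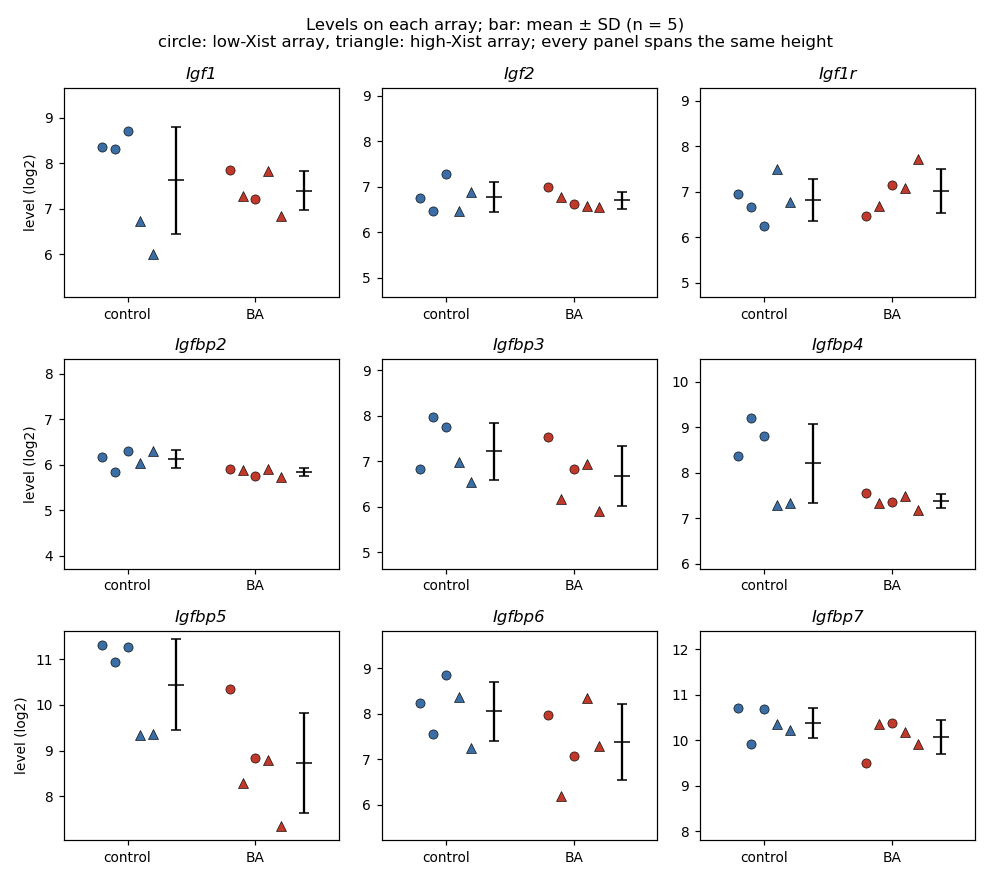
Levels of the 9 genes (log2, vertical axis) on each of the 10 arrays, control in blue and BA in red, with mean ± SD at the right of each group and every panel spanning the same height; circles are arrays with low and triangles arrays with high Xist, the RNA that coats the inactive X chromosome. Igfbp5 ran from 9.35 to 11.31 in control and from 7.35 to 10.36 in BA cells, and control arrays 4 and 5 lay below the other controls for Igf1, Igfbp4 and Igfbp5.

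**Figure D2:**
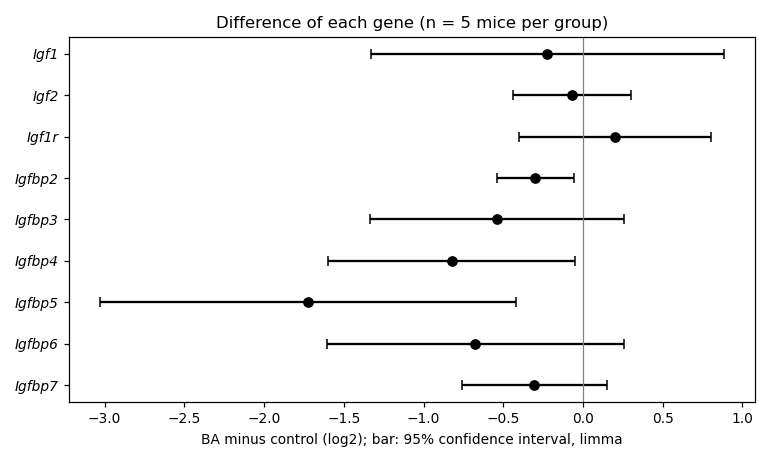
Difference of each gene (BA minus control, log2, horizontal axis) with its 95% confidence interval from limma, n = 5 mice per group. The intervals of Igfbp2, Igfbp4 and Igfbp5 lay below 0 before adjustment for the number of genes tested, and those of the other 6 genes spanned 0.

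Of the ligands, Igf1 showed the widest spread among control mice. It stood at 8.35, 8.31, 8.71, 6.73 and 6.01 on control arrays 1 to 5, and at 7.85, 7.28, 7.21, 7.82 and 6.83 on BA arrays 1 to 5. Controls 1 to 3 thus lay above all BA arrays and controls 4 and 5 below all of them, while the BA arrays kept to a narrow band between. The means were 7.62 ± 1.18 for the controls and 7.40 ± 0.43 for the BA mice (SD, n = 5 each), which gives a difference of -0.22 ± 0.50 (SE; adjusted p = 0.870, limma) with a 95% interval from -1.33 to 0.88. The interval runs from 2.52-fold lower to 1.85-fold higher, and 1 array could turn the sign: without control replicate 5 the difference was -0.63 and without control replicate 3 it was 0.05.

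Igf2, the paternally expressed fetal growth factor, varied little. Control arrays read 6.75, 6.47, 7.28, 6.47 and 6.89 and BA arrays 6.99, 6.77, 6.63, 6.57 and 6.55. The BA range lay wholly inside the control range, and the difference was -0.07 ± 0.17 (SE), with a 95% interval from -0.44 to 0.30. A change of more than about that size in either direction is outside the interval, although values this close to the array medians (5.91 to 6.02) may be compressed by the background correction.

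Igf1r, the receptor through which both ligands act, was the 1 gene with a higher mean in BA cells. It read 6.95, 6.66, 6.25, 7.51 and 6.77 in controls and 6.48, 6.68, 7.16, 7.08 and 7.73 in BA mice. The groups overlapped over most of their range, with a difference of 0.20 ± 0.27 (SE) and a 95% interval from -0.40 to 0.80. Single arrays moved it in both directions: it was 0.02 with BA replicate 5 left out and 0.05 with control replicate 3 left out, but 0.33 when BA replicate 1 and 0.37 when control replicate 4 was left out.

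Igfbp5, the most conserved binding protein and a matrix-bound product of bone cells, differed most. Control arrays read 11.31, 10.94, 11.27, 9.35 and 9.36, and BA arrays 10.36, 8.29, 8.83, 8.79 and 7.35. Controls 1 to 3 lay above every BA array, BA arrays 2 to 5 lay below every control, and BA replicate 1 was the single array that crossed. The controls averaged 10.45 ± 1.01 and the BA mice 8.72 ± 1.09 (SD, n = 5 each). The difference was therefore -1.72 ± 0.59 (SE), 3.30-fold lower (95% interval 1.34 to 8.14), with adjusted p = 0.482 (limma). A mean at least 1 log2 unit lower was found for 0.657% of all genes. The difference stayed between -2.13 and -1.38 when each array was left out in turn, and it had an unadjusted p under 0.05 in all 10 of those fits.

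Igfbp4, which blocks IGF action until PAPP-A cleaves it, was high in only a few mice. Control arrays read 8.38, 9.21, 8.80, 7.30 and 7.34, and BA arrays 7.55, 7.33, 7.35, 7.50 and 7.18. Controls 1 to 3 again lay above all BA arrays, while controls 4 and 5 lay within the BA range. The BA arrays spanned 0.37 and the control arrays 1.91. The difference was -0.82 ± 0.35 (SE), or 1.77-fold lower (95% interval 1.03 to 3.03; adjusted p = 0.508, limma), and in 8 of the 10 fits that each left out 1 array its unadjusted p was no longer under 0.05, nor was it with each array centred on its median or with the plain equal-variance fit.

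Igfbp2, a circulating binding protein also made by stromal cells, had the smallest spread. Control arrays read 6.18, 5.84, 6.31, 6.05 and 6.30, and BA arrays 5.91, 5.88, 5.76, 5.91 and 5.73. Control replicate 2 was the 1 control inside the BA range, and the other 4 controls lay above all BA arrays. The difference of -0.30 ± 0.11 (SE; adjusted p = 0.484, limma) was 1.23-fold, at a level close to the array medians where differences may be compressed. Its unadjusted p was no longer under 0.05 with the replicate number as a block, without control replicate 3 (-0.25) or without both arrays numbered 5 (-0.23). In RefSeq's gene table Igfbp2 and Igfbp5 are neighbouring protein-coding genes, as are Igfbp1 and Igfbp3.

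The other 3 binding protein genes overlapped more. Igfbp3, the main carrier of IGF in serum, read 6.82, 7.97, 7.76, 6.98 and 6.54 in controls and 7.54, 6.16, 6.83, 6.94 and 5.91 in BA mice. Its difference was -0.54 ± 0.36 (SE), and BA arrays 2 and 5 lay below all controls. It was -0.35 without control replicate 2 and also -0.35 without BA replicate 5. Igfbp6, which prefers IGF2, read 8.24, 7.55, 8.84, 8.37 and 7.24 in controls and 7.97, 6.20, 7.08, 8.34 and 7.28 in BA mice. Its difference was -0.67 ± 0.42 (SE), and without BA replicate 2, the lowest array, it was -0.38. Igfbp7, a low-affinity relative secreted by many stromal and vascular cells, read 10.70, 9.92, 10.68, 10.35 and 10.21 in controls and 9.50, 10.35, 10.38, 10.18 and 9.92 in BA mice. Its difference was -0.31 ± 0.21 (SE), with BA replicate 1 below all other arrays, and without that array it was -0.16. The 95% intervals of these genes ran from -1.34 to 0.26 for Igfbp3, from -1.60 to 0.26 for Igfbp6 and from -0.76 to 0.15 for Igfbp7, so 0 lay within each of them.

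Counted by mouse, each BA array had between 6 and 9 of the 9 genes below the control mean. BA replicate 2 had all 9 below it, and BA replicate 5 had 8 below it and the lowest of the 10 values for 4 genes. Among controls the count was 7 for replicates 4 and 5 and 1 for replicate 3, which held the highest value for 4 genes. The counts of control replicates 4 and 5 thus lay within the range of the BA mice. The same count over all genes was not made for single arrays, and 62.1% of all genes had a lower mean in BA cells. Nor are the 9 genes independent. With group means taken off, Pearson's r of their pairs ran from -0.75 (Igf2 and Igf1r) to 0.89 (Igf1 and Igfbp4).

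The split of the controls ran through Igf1, Igfbp4 and Igfbp5 together and was shared by genes of CXCL12-abundant reticular stroma, the adipogenic perivascular cells that support stem cells. The mean of 9 such markers (Cxcl12, Lepr, Adipoq, Kitl, Ebf3, Foxc1, Esm1, Lpl and Vcam1) was 9.90, 9.92 and 9.11 on control arrays 1 to 3 and 7.94 and 7.67 on control arrays 4 and 5. On BA arrays 1 to 5 it was 8.45, 6.97, 7.77, 7.74 and 6.65. All 9 markers had a lower mean in BA cells, with a median difference of -1.33. BA replicate 1 had the highest stromal marker level and the highest Igfbp5 of the BA arrays, and BA replicate 5 the lowest of both. In RNA of a whole sorted fraction, fewer cells of a type and less RNA per cell cannot be told apart, and the part of these cells in the differences of the IGF genes was not tested.

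**Figure D3:**
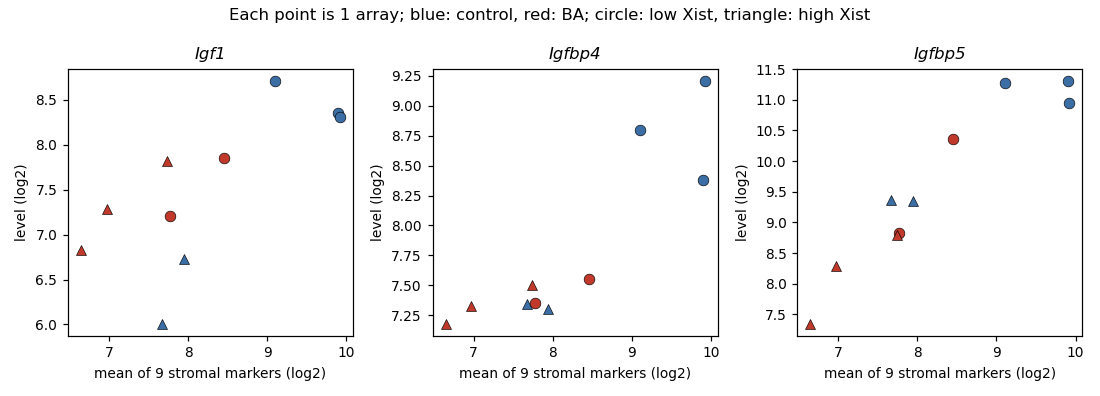
Levels of Igf1, Igfbp4 and Igfbp5 (log2, vertical axes) against the mean of 9 stromal marker genes (log2, horizontal axes), 1 point per array, control in blue and BA in red, circles for low and triangles for high Xist. The 3 controls with marker means from 9.11 to 9.92 were the highest arrays for all 3 genes, and BA replicate 5, at 6.65, was the lowest for Igfbp4 and Igfbp5.

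Because these 3 genes were high on the same arrays, the 250 bases before their RefSeq start sites (GRCm38.p6) are shown, 5′ to 3′ on the coding strand, at chr10:87860861-87861110 (+) for Igf1, chr11:99040994-99041243 (+) for Igfbp4 and chr1:72874866-72875115 (-) for Igfbp5. Capitals mark every match, on either strand, to the TATA box TATAAA, the CCAAT box, the GC box GGGCGG or the E-boxes CAGCTG and CACGTG, none of which overlapped another here.
Igf1: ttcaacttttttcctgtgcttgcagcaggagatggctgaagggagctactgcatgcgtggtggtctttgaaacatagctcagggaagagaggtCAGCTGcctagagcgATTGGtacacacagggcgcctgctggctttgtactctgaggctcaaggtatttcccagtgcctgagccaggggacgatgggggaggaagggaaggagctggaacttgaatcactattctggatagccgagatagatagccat
Igfbp4: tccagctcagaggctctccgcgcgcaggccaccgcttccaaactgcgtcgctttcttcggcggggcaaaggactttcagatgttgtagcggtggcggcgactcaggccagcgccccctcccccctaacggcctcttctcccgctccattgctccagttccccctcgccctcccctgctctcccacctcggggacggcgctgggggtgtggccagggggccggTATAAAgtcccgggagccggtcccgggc
Igfbp5: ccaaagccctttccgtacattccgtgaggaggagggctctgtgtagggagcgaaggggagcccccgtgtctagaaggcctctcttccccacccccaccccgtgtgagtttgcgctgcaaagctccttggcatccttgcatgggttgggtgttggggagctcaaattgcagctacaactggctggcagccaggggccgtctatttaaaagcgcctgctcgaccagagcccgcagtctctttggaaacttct
The Igfbp4 window held TATAAA, starting 28 bases before the start site, a motif found in 12.4% of 32851 such windows in RefSeq's table. The Igf1 window held CAGCTG 157 bases before the start (13% of windows) and, on the opposite strand, CCAAT 142 bases before it (33.8% of windows). None of these letters occurred in the Igfbp5 window, and GGGCGG (32.7% of windows) and CACGTG (6.02% of windows) occurred in none of the 3. The windows thus had none of the searched motifs in common. Their G and C content was 52.8% for Igf1, 69.2% for Igfbp4 and 58.8% for Igfbp5, where the median window had 52.4%. Each window stands for 1 start site, while RefSeq lists 21 transcripts for Igf1, 3 for Igfbp4 and 1 for Igfbp5.

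Markers of other cells were compared across the same arrays. The 7 endothelial markers averaged between 5.27 and 5.70 on control and between 5.24 and 5.39 on BA arrays, with Cdh5 between 5.51 and 5.90. The 8 macrophage markers averaged between 5.67 and 6.09 on control arrays and between 5.76 and 7.12 on BA arrays, with BA replicate 5 the highest. The 8 pan-haematopoietic markers were highest on that array too, at 7.94, against 5.65 to 6.56 on the other 9, and without it Igfbp5 differed by -1.38. The 8 neutrophil markers all had a higher mean in BA cells, with a median difference of 0.87. They averaged 9.17, 7.99, 8.56, 9.16 and 10.05 on BA arrays 1 to 5 and between 7.21 and 9.19 on control arrays, so the groups overlapped and BA replicate 5 was again the highest. Of the 10 chondrocyte markers, 8 had a higher mean in BA cells, with a median difference of 0.12 and averages between 10.74 and 11.31 on control and between 10.96 and 11.38 on BA arrays. The 7 pericyte and smooth muscle markers averaged between 7.72 and 8.78 on control and between 6.61 and 7.72 on BA arrays, and all 7 had a lower mean in BA cells. The 8 fibroblast and tendon markers averaged between 8.27 and 9.74 on control and between 8.06 and 8.82 on BA arrays, with control replicate 3 the highest, as it was for Igf1, Igf2, Igfbp2 and Igfbp6. A further fit allowed for how high the pan-haematopoietic markers stood on each array. There Igfbp5 differed by -1.54, Igfbp3 by -0.44 and Igf1r by 0.09, against -1.72, -0.54 and 0.20 in the main fit. Igfbp4 went the other way, at -0.86 against -0.82, the only gene of the family whose difference grew. Apart from this fit, the part of any of these cell types in the IGF differences was not tested. As to the labelled cell type, 7 of 11 listed osteoblast markers were measured. They averaged between 9.28 and 10.05 on control and between 8.73 and 9.70 on BA arrays, and 5 of them had a lower mean in BA cells. Col1a1 differed by -1.25, Col1a2 by -1.16, Phex by -1.12, Dmp1 by -0.42, Alpl by 0.47 and Sp7 by 0.03. The bone sialoprotein gene Ibsp differed by -0.01 and lay between 12.59 and 12.85 over all arrays.

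The labels give no sex, but Xist was high (9.81 to 10.70) on control arrays 4 and 5 and BA arrays 2, 4 and 5, and low (3.85 to 5.08) on the other 5. The mean of 3 Y-linked genes ran from 3.97 to 4.34 on the high-Xist arrays and from 5.23 to 7.24 on the low-Xist arrays. That is the pattern of female and of male mice, in this order, so both groups appear to mix the sexes. Within the low-Xist arrays (3 control, 2 BA) Igf1 differed by -0.93 and both BA arrays lay below all 3 controls. Within the high-Xist arrays (2 control, 3 BA) it differed by 0.94 and all 3 BA arrays lay above both controls. The difference between these differences was 1.87 ± 0.48 (SE) and did not pass over all genes (adjusted p = 0.999, limma interaction term), a test that 0% of all genes passed (3.35% had an unadjusted p under 0.05, Igf1 and Igfbp4 among them). Groups apart in opposite directions in the 2 classes were seen for 1.04% of all genes, Igf1 being the 1 such gene of the 9. For Igfbp4 the low-Xist difference was -1.35 and the high-Xist difference 0.02, a gap between them of 1.36 ± 0.33 (SE; adjusted p = 0.999, limma). Igfbp5 kept its direction in both, at -1.58 and -1.21, as did Igfbp2, at -0.28 and -0.34. So did Igf2, Igf1r, Igfbp3, Igfbp6 and Igfbp7. The high-Xist controls were the same arrays that were low in stromal markers, so Xist level and stromal content cannot be told apart among the controls.

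**Figure D4:**
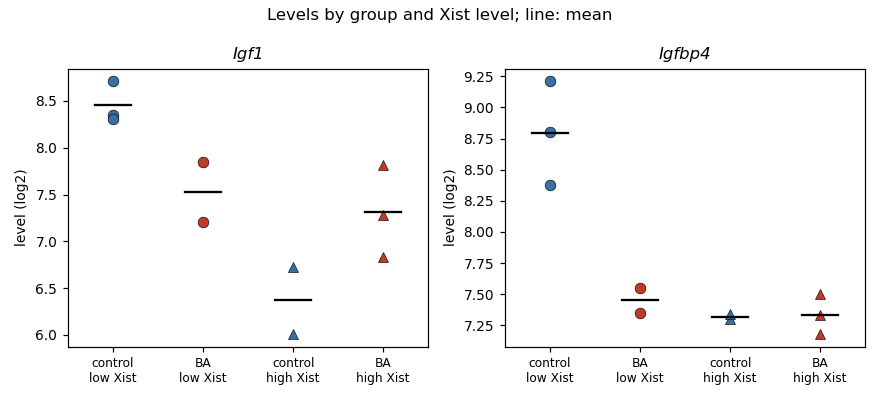
Levels of Igf1 and Igfbp4 (log2, vertical axis) by group and Xist class, 1 point per array with a line at the mean. Igf1 was lower in BA than in control mice among low-Xist arrays, by 0.93, and higher by 0.94 among high-Xist arrays; Igfbp4 was high on the 3 low-Xist control arrays alone.

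The rest of the IGF system was read from 59 listed genes, of which 53 were measured: 28 had a higher and 25 a lower mean in BA cells, with a median difference of 0.07, and 0 passed an adjusted p under 0.05 (limma). At an unadjusted p under 0.05, 5 of the 53 were higher and 3 lower, where 4.13% of all genes were higher and 5.27% lower, so the lower count was near that of all genes. Of the 5 measured genes for other ligands and carriers, all had a lower mean, where 62.1% of all genes did. Kazald1, an IGFBP-related protein of bone, read 7.61, 6.82, 7.32, 7.59 and 6.73 in controls and 6.63, 6.38, 5.25, 5.51 and 5.69 in BA mice, and was the 1 gene of the 53 whose groups did not overlap, a share near the 1.67% of all genes. Its difference was -1.32 ± 0.29 (SE; adjusted p = 0.384, limma). Igfbpl1 differed by -0.22 and Igfbp1 by -0.16. These genes, like Igfals and Ins2, averaged between 5.65 and 6.03 over all arrays. That is close to the array medians (5.91 to 6.02), where differences may be compressed.

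Among proteases of the binding proteins and their inhibitors, 4 of 7 had a lower mean. Pappa, which encodes the protease PAPP-A that cleaves IGFBP4 and IGFBP5, read 8.38, 8.06, 7.64, 7.55 and 6.81 in controls and 6.18, 6.49, 7.28, 6.07 and 6.40 in BA mice. BA replicate 3 alone overlapped the controls, and the difference was -1.20 ± 0.31 (SE; adjusted p = 0.384, limma). Adam12, another IGFBP protease, differed by -0.51 and the serine protease gene Htra1 by 0.52. Unlike Igfbp4, Pappa was not split among the controls into arrays 1 to 3 and arrays 4 and 5 by a wide gap, since replicates 3 and 4 stood at 7.64 and 7.55.

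Of 3 receptors other than Igf1r, 2 had a higher mean and 0 passed at an unadjusted p under 0.05. Igf2r, which clears IGF2, differed by 0.22 ± 0.16 (SE), the insulin receptor gene Insr by 0.43 ± 0.42 (SE), with a second probe set at -0.07, and the insulin receptor-related gene Insrr by -0.15. Of 25 measured signalling genes downstream of the receptors, 18 had a higher and 7 a lower mean, with a median difference of 0.16, and 3 were higher at an unadjusted p under 0.05, where 62.1% of all genes had a lower mean and 4.13% were higher at that p. These were Rictor, a subunit of mTOR complex 2 (0.72 ± 0.20, SE), the kinase gene Akt1 (0.46 ± 0.19, SE) and Pdpk1, the kinase that activates AKT (0.56 ± 0.25, SE). They encode parts of the pathway below the receptor, and their RNA says nothing of its activity.

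In the growth hormone axis, which drives Igf1 in liver and bone, 3 of 6 genes had a higher and 3 a lower mean. Socs2, a feedback inhibitor of growth hormone signalling, read 6.81, 8.17, 6.69, 6.70 and 9.16 in controls and lay between 8.53 and 9.39 on BA arrays. Controls 2 and 5 were the high ones, and the difference was 1.51 ± 0.46 (SE; adjusted p = 0.459, limma), with a second probe set at 0.35. The kinase gene Jak2 differed by 1.08 ± 0.44 (SE) and Stat5b, which carries growth hormone signals to the nucleus, by -0.54 ± 0.23 (SE). The last list held imprinted genes, not all of them near Igf2, and genes of Igf2 mRNA-binding proteins, and H19 was not measured. Of its 7 measured genes, 5 had a lower mean, with Dlk1 at -0.28, Meg3 at -0.59 and Igf2bp1 at -0.21. Igf2bp1 averaged 5.91 over all arrays, close to the array medians.

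**Figure D5:**
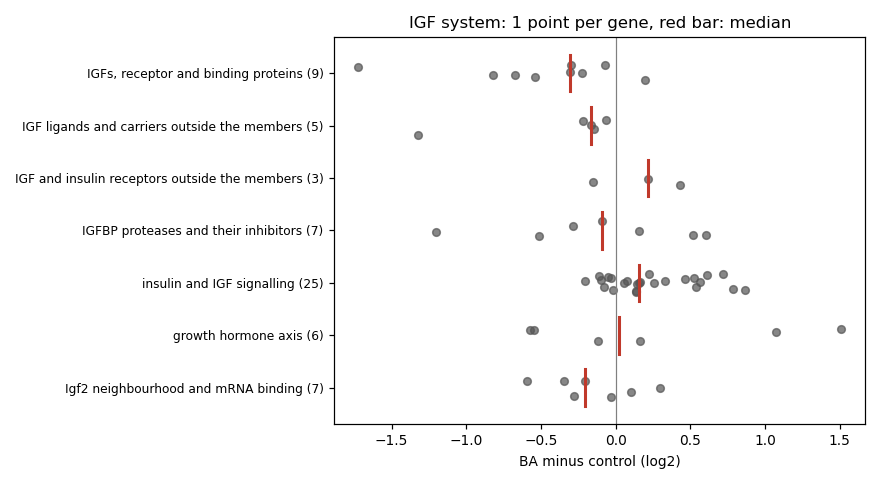
Difference (BA minus control, log2, horizontal axis) of each gene of the IGF system, 1 point per gene, with the median of each group as a red bar and the number of genes in brackets. The 9 genes of the family had a median of -0.31 and the 25 signalling genes one of 0.16; the leftmost points are Igfbp5, Kazald1 and Pappa.

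To show which genes shared their mouse-to-mouse pattern, each gene was set against 9365 other genes of above-median level (9366 for Igfbp2) by Pearson's r over the 10 arrays, after each group's own mean had been taken off. These values describe likeness over few arrays that share the split of the controls, and no test is attached to them. Igf1 was most like Pdgfra, the receptor that marks mesenchymal progenitors (r = 0.94), and Cope (0.94). Igfbp5 was most like Gdpd2, a phosphodiesterase gene (r = 0.97), and Kng2 (0.97), and Igfbp4 most like Iigp1, an interferon-induced GTPase gene (0.93), and Gsta4 (0.92). Igfbp3 was nearest to Id3, an inhibitor of helix-loop-helix factors (r = 0.96), and Bcl9l (0.93), and Igf2 to Pbxip1 (0.95) and Gas1 (0.95). For Igf1r the nearest were the adaptor gene Crk (r = 0.93) and Xpo4 (0.93), for Igfbp2 Bnip5 (0.94) and Ly6h (0.94), for Igfbp6 Ptpn4 (0.94) and Ruvbl2 (0.91), and for Igfbp7 Mgrn1 (0.95) and Uxt (0.93). Of these 18 genes, Iigp1 differed most between the groups, at -2.01 ± 0.66 (SE; adjusted p = 0.477, limma).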

How the data were processed

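RNA of sorted osteoblastic lineage cells from 5 control and 5 BA mice was measured on 1 array each. The authors deposited values on a log2 scale for 35557 probe sets; GCRMA is named in the submitters' processing notes, with no version, and base 2 follows from the span of the values (1.21 to 13.70) and that tool. No scanner files or detection calls were used, so signal over background is unknown, and precision is set by how many arrays there were. Probe sets were named from the platform annotation: 21789 had 1 symbol, 1621 several and 12147 none. Each gene took its probe set of highest mean. The test of BA against control was limma's (version 3.58.1, under R 4.3.3; lmFit and eBayes, two-sided, without covariate), adjusted over 19938 genes by Benjamini-Hochberg, and the code was tested on simulated data. Named genes are the 9 of the family, up to 3 of each list of the IGF system with the smallest p, and 2 per family gene by likeness. The members and lists were chosen with earlier results of these data known. Of the 4 listed Y-linked genes, 3 were measured. As alternatives, a block for the replicate number was fitted, as were other normalizations, filters, weights, tests and covariates, and each array was left out. The Xist class and the removal of a pair of arrays were added after seeing the data.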

Additional observations from a re-analysis of the deposited data

Results flagged for a closer look

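Igf1 was singled out because BA and control arrays differed in opposite directions in the low-Xist and high-Xist mice, with no overlap in either, a pattern that 1.04% of all genes showed. The difference between the classes was 1.87 (log2; 95% interval 0.76 to 2.97; adjusted p = 0.999, limma interaction over all genes). It rests on 2 high-Xist controls, which read 6.73 and 6.01. A check for single arrays far from their group, over the 18 groups of 5 arrays of the 9 genes, found 0. It sets the extreme array against its nearest neighbour, so it does not flag arrays that lie low together. Control arrays 4 and 5 did so for Igfbp4 (7.30 and 7.34) and Igfbp5 (9.35 and 9.36).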

How the results depend on the processing

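Over 206 values of the 9 genes under the alternatives, 203 kept their direction and 0 passed an adjusted p under 0.05 (range 0.320 to 0.998, limma or, in the plain equal-variance fit, the same values without moderation). Some alternatives could not change a difference: the replicate block, the filter by level, the mean of probe sets, and the trend and robust settings. Nor could the plain test or a looser threshold, so the directions kept there carry no information. The exceptions in direction were Igf1, at 0.0067 with the Xist class as a covariate, and Igf1 and Igf2 when arrays were left out in turn, with ranges from -0.63 to 0.048 and from -0.15 to 0.057, both highest without control replicate 3; the cause was not tested. Over all genes, the number higher past the threshold was 1 and became 0 with the replicate number as a block, among genes above the median level (which drops Igfbp2), with the plain equal-variance test, with the pan-haematopoietic covariate and without both arrays numbered 5; it became 2 with the Y-linked and with the Xist class covariate. Leaving out each array gave 0 to 12 genes higher (12 without BA replicate 4) and 0 to 1 lower. Same-numbered control and BA arrays deviated together with r across genes from -0.10 to 0.11. Such values give no clear sign of pairing by number, but they cannot exclude it. With equal groups the block cannot move a difference, so Igfbp5 stayed at -1.72. Its SE was 0.34 with the block and 0.59 without (adjusted p = 0.441 with the block, limma). The array number limits the precision.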
